A study of Mus musculus with 6 samples.

Results

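The genes described are the β subunits of the Na/K-ATPase and 3 of its FXYD regulators, which are Atp1b1, Atp1b2, Atp1b3, Fxyd1, Fxyd5 and Fxyd6. They were chosen by gene symbol, and all 6 were found among the 54532 genes of the count table. RNA from whole hearts of mice aged 3 months on a C57BL/6 background was sequenced, and per the study's methods the animals were males. The control hearts were α1r/rα2s/s, labelled resistant, whose native mouse α1 binds cardiotonic steroids (CTS), such as ouabain, with low affinity. The other hearts were α1s/sα2s/s, labelled sensitive, in which a pair of amino acid substitutions gives α1 a high affinity for CTS. Both genotypes carry the CTS-sensitive α2. The substitutions are inherited and not confined to a cell type of the heart, and per the study's methods the colony was backcrossed to C57BL/6. The labels name no treatment. The α1r/rα2s/s hearts came from mice 368, 369 and 370 and the α1s/sα2s/s hearts from mice 379, 380 and 381. The labels alone gave the genotypes, since the substitutions cannot be seen in counts per gene.

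The Na/K-ATPase is the sodium pump of the plasma membrane, and it works as a complex of a catalytic α subunit, which binds CTS, and a glycosylated β subunit. The β subunit is needed for folding, exit from the endoplasmic reticulum and delivery of the pump to the cell surface, and it modifies the affinity for potassium. FXYD proteins are small membrane proteins, named for a conserved sequence motif, that associate with the pump and adjust its kinetics in a tissue-dependent way. In cardiac myocytes the main FXYD protein is phospholemman, encoded by Fxyd1, whose phosphorylation by protein kinases A and C relieves its inhibition of the pump.

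Atp1b1 and Fxyd1 had the most counts of the β subunit and FXYD members, and the bases upstream of their RefSeq transcription starts are shown. They are the 250 bases before the RefSeq start on GRCm38.p6, at chr1:164458356-164458605 and chr7:31054854-31055103, both on the minus strand. The Atp1b1 window ends where the gene of the count table begins. The Fxyd1 window lies inside the gene of the count table, which runs from 31051678 to 31057199 and starts further upstream than RefSeq has it, so it is not upstream of every transcript counted. Capitals mark exact matches, on either strand, to the searched motifs, which were the GC box with the letters GGGCGG, the CCAAT box, and the TATA box written as TATAAA. The alternative form TATATA was searched as well.
Atp1b1: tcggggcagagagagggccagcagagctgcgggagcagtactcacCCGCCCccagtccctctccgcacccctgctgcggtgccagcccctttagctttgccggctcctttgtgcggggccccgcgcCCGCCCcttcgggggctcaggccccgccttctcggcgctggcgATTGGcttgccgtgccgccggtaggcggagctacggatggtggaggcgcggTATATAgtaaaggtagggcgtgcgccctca
Fxyd1: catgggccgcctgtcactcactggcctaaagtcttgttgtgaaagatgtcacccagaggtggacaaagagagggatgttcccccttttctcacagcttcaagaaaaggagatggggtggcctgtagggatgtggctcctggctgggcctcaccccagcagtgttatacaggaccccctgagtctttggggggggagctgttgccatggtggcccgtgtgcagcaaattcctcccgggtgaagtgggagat
The Atp1b1 window was 70.4% G and C and held 2 GC boxes and a CCAAT box, all read on the strand opposite to the gene, and TATATA from 30 to 25 bases before the start. Over all 32851 such windows in RefSeq, 32.7% held GGGCGG, 33.8% CCAAT, 12.4% TATAAA and 5.25% TATATA, and the median content of G and C was 52.4%. The Fxyd1 window was 57.2% G and C, and none of these letters were in it. TATATA reads the same on both strands, and a match is a description of letters and not of a bound site.

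The total was 19309312 to 20470065 counts per heart, and 14866 genes passed the filter on low counts, all 6 members among them. With edgeR's quasi-likelihood test and Benjamini-Hochberg adjustment, 214 genes (1.44% of those tested) had an adjusted p under 0.05, with 0.78% higher and 0.659% lower in α1s/sα2s/s hearts. Cardiomyocyte markers (Myh6, Tnnt2, Tnni3, Actc1, Ryr2, Myl2 and Mb) summed to 48097 to 59118 CPM (counts scaled to library size) in α1r/rα2s/s hearts and 53019 to 58139 CPM in α1s/sα2s/s hearts, so the labelled tissue had its defining genes. Hearts of one genotype differed by more than sampling noise. Each of the 6 was counted as 1 replicate.

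The comparison of the genotypes asks if the RNA of the pump's partner subunits differs when α1 is CTS-sensitive. None of the 6 had an adjusted p under 0.05 in edgeR, and DESeq2 called 0 as well. At an unadjusted p under 0.05, edgeR gave 2 of the 6, Atp1b1 and Fxyd5, both lower in α1s/sα2s/s hearts, where the share over all tested genes was 14.5% in either direction and 7.27% lower. DESeq2 gave 1. The point estimates were below 0 for 4 of the 6, Atp1b1, Atp1b2, Fxyd5 and Fxyd6, as for 51.6% of all tested genes, and above 0 for Atp1b3 and Fxyd1, and none was larger than 0.33 on the log2 scale. Atp1b1 was the 1 member whose hearts did not overlap between the genotypes, where 20% of all tested genes did not and 9.98% were lower without overlap. In a whole heart, fewer cells of a type and less RNA per cell cannot be told apart.

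**Figure D1:**
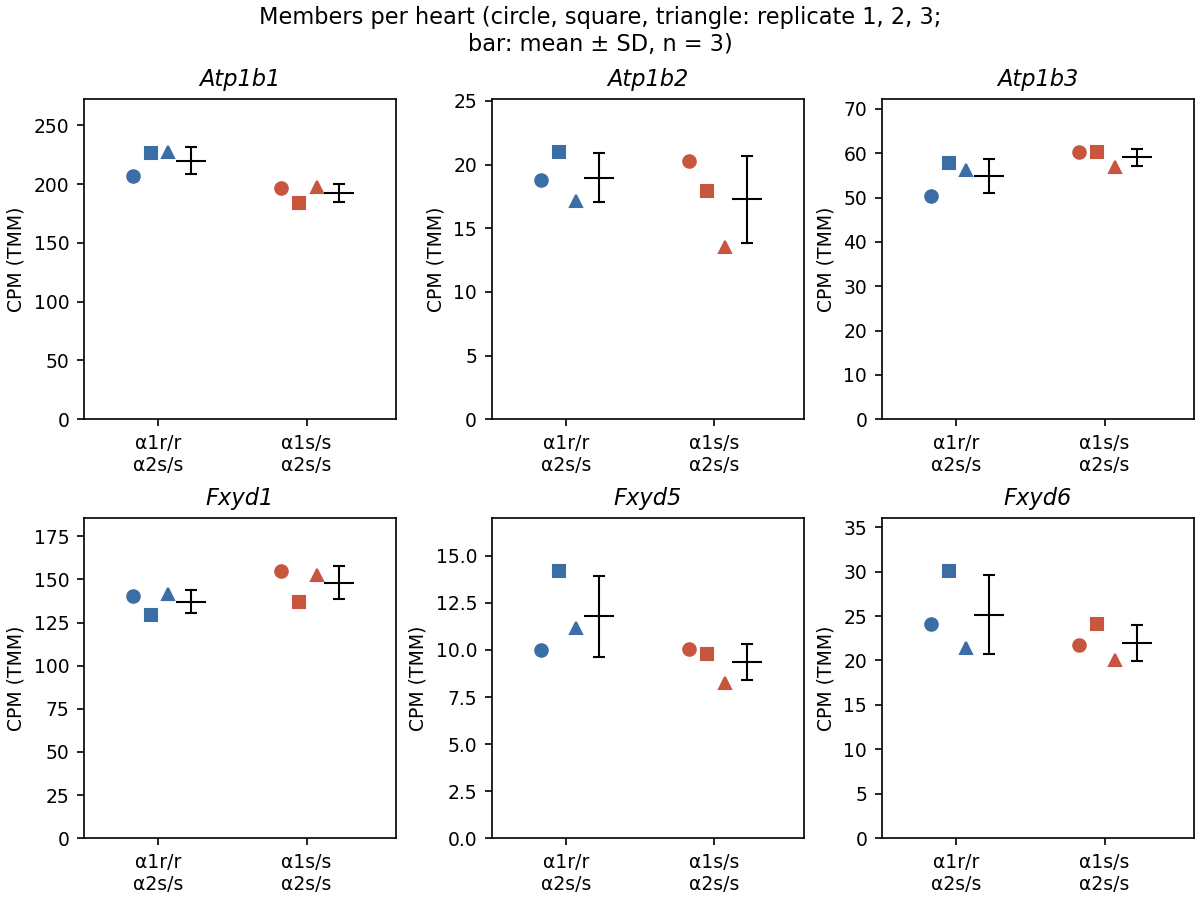
CPM of each member in each heart, with α1r/rα2s/s on the left and α1s/sα2s/s on the right of each panel. Each point is a heart, and the bars give the mean and SD of 3 hearts. The hearts of the genotypes are apart in the Atp1b1 panel, at 207 to 227 against 184 to 197 CPM, and overlap in the other panels.

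Atp1b1 encodes β1, the β subunit of most pumps in the cardiac myocyte. The gene (ENSMUSG00000026576) lies on chromosome 1 of GRCm38 from 164437109 to 164458355. It had 207, 226 and 227 CPM in α1r/rα2s/s hearts and 197, 184 and 197 CPM in α1s/sα2s/s hearts. All 3 α1s/sα2s/s hearts lay below all 3 α1r/rα2s/s hearts, from counts of 3492 to 4734. The means were 220 ± 11.4 and 192 ± 7.63 CPM (SD, n = 3). On the log2 scale the difference was -0.19 (standard error 0.07), with an adjusted p of 0.204 in edgeR. The 95% interval of the difference was -0.34 to -0.04 on the log2 scale, or 0.789 to 0.970 of the α1r/rα2s/s level. Over the 13 alternative settings, the adjusted p of Atp1b1 was 0.112 to 0.445, and its sign did not change.

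Atp1b3 encodes β3, a widely expressed β subunit also known as the surface antigen CD298. The gene (ENSMUSG00000032412) lies on chromosome 9 from 96332655 to 96364442. Its level was 50.4, 57.8 and 56.2 CPM in α1r/rα2s/s hearts and 60.2, 60.2 and 56.8 CPM in α1s/sα2s/s hearts. The heart of mouse 381 lay among the α1r/rα2s/s hearts, so that the genotypes overlapped. The log2 fold change was 0.11 (95% interval -0.06 to 0.28, adjusted p = 0.558 in edgeR). Without mouse 368, the lowest of the α1r/rα2s/s hearts, it was 0.06.

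Atp1b2 encodes β2, first described as an adhesion molecule on glia and most abundant in nervous tissue. The gene (ENSMUSG00000041329) lies on chromosome 11 from 69599736 to 69605942. It had 18.8, 21.0 and 17.1 CPM in α1r/rα2s/s hearts and 20.3, 17.9 and 13.5 CPM in α1s/sα2s/s hearts, and the genotypes overlapped. The lowest value was that of mouse 381, and the log2 fold change of -0.13 (95% interval -0.43 to 0.16, adjusted p = 0.704 in edgeR) became 0.01 without this heart. Without mouse 379 it was -0.27, and without mouse 369 it was -0.05.

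Shares within the β subunits were taken from counts per kilobase of gene length, since longer genes give more reads. In α1r/rα2s/s hearts Atp1b1 was 72.3%, 71.5% and 72.7% of the sum, Atp1b3 was 22.7%, 23.5% and 23.2%, and Atp1b2 was 4.95%, 4.998% and 4.14%. In α1s/sα2s/s hearts Atp1b1 was 67.9%, 66.8% and 70.2%, Atp1b3 was 26.8%, 28.2% and 26.1%, and Atp1b2 was 5.29%, 4.92% and 3.64%. The Atp1b1 share was lower and the Atp1b3 share higher in every α1s/sα2s/s heart than in any α1r/rα2s/s heart. The ratio of Atp1b1 to a tested gene did not overlap for 34.3% of the genes, and that of Atp1b3 for 20.4%. The mean share of Atp1b1 was 72.2% ± 0.625 and 68.3% ± 1.75 (SD, n = 3), a difference of -3.83 percentage points (exact permutation test, two-sided p = 0.1, adjusted over the 3 shares 0.15). That of Atp1b3 was 23.2% ± 0.404 and 27.1% ± 1.08 (SD, n = 3), a difference of 3.91 percentage points (exact permutation test, two-sided p = 0.1, adjusted 0.15). With 3 hearts of each genotype the smallest p this test allows is 0.1. The share of Atp1b2 was 4.69% ± 0.484 and 4.62% ± 0.867 (SD, n = 3), with overlap (exact permutation test, two-sided p = 0.8). The 3 shares add up to the whole, so they are not independent of each other. The β subunits together had 92.8, 102.7 and 101.4 CPM per kilobase in α1r/rα2s/s hearts and 94.0, 89.2 and 91.1 in α1s/sα2s/s hearts, and the genotypes overlapped in this sum.

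**Figure D2:**
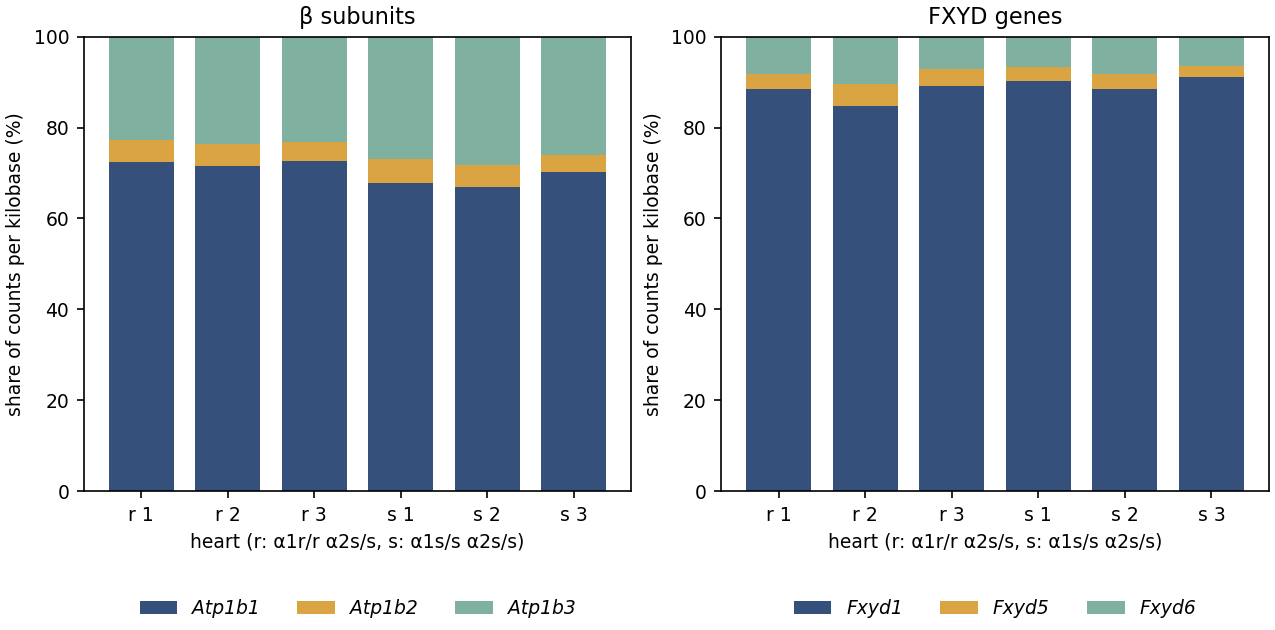
Share of each gene in the counts per kilobase of the β subunit members (left) and of the FXYD members (right), in percent, with a bar for each heart. Atp1b1 is 66.8% to 72.7% of the β subunits and Fxyd1 is 84.7% to 91.1% of the FXYD members in every heart.

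Fxyd1 (ENSMUSG00000036570) encodes phospholemman and lies on chromosome 7 from 31051678 to 31057199. It had 140, 130 and 141 CPM in α1r/rα2s/s hearts and 155, 137 and 153 CPM in α1s/sα2s/s hearts. The heart of mouse 380 lay within the range of the α1r/rα2s/s hearts, and the other α1s/sα2s/s hearts lay above it. The means were 137 ± 6.55 and 148 ± 9.76 CPM (SD, n = 3), and the log2 fold change was 0.11 (95% interval -0.04 to 0.27, adjusted p = 0.512 in edgeR). As a fold this interval was 0.971 to 1.204. Without mouse 380 the log2 fold change was 0.17, while it was 0.077 without mouse 369 and 0.083 without mouse 379.

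Fxyd6 (ENSMUSG00000066705) encodes phosphohippolin, a FXYD protein known mostly from the brain, and lies on chromosome 9 from 45370185 to 45396159. It had 24.1, 30.0 and 21.4 CPM in α1r/rα2s/s hearts and 21.8, 24.1 and 20.02 CPM in α1s/sα2s/s hearts. Mouse 369 was the highest of all hearts, and the others overlapped. The log2 fold change of -0.20 (95% interval -0.46 to 0.07, adjusted p = 0.496 in edgeR) became -0.05 without mouse 369, and -0.30 without mouse 370.

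Fxyd5 (ENSMUSG00000009687) encodes dysadherin, which binds the pump and lowers cell adhesion, and is found in epithelia, endothelium and blood cells. It lies on chromosome 7 from 31032722 to 31042481. It was the lowest member, with 10.03, 14.2 and 11.2 CPM in α1r/rα2s/s hearts and 10.03, 9.78 and 8.25 CPM in α1s/sα2s/s hearts. The hearts of mice 368 and 379 had nearly equal values, where the genotypes overlapped. The means were 11.8 ± 2.15 and 9.35 ± 0.966 CPM (SD, n = 3). The log2 fold change was -0.33, with a standard error of 0.15 and a 95% interval of -0.66 to -0.0043 (adjusted p = 0.339 in edgeR). Its counts were 159 to 297 per heart, at which counting error alone is 5.80% to 7.93% of the value. Without mouse 369 the log2 fold change was -0.18 (adjusted p = 0.759 in edgeR).

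Mouse 369, which had the highest Fxyd5, Fxyd6 and Atp1b2, also had the highest sums of macrophage and atrial markers. The macrophage markers Ptprc, Cd68, Adgre1, Csf1r and C1qa summed to 123 to 194 CPM in α1r/rα2s/s hearts, with mouse 369 at 194, and to 101 to 127 CPM in α1s/sα2s/s hearts. The point estimates of 5 of these 5 genes were below 0 in α1s/sα2s/s hearts, and 0 of them passed an adjusted p under 0.05 in edgeR (2 at an unadjusted p under 0.05). The atrial markers Nppa, Myl7, Myl4, Sln and Bmp10 summed to 157 to 253 CPM in α1r/rα2s/s hearts, with mouse 369 at 253, and to 140 to 168 CPM in α1s/sα2s/s hearts. Here too 5 of 5 point estimates were below 0, with 0 past the threshold in edgeR (2 at an unadjusted p under 0.05), and 1 of the 5 genes was at 0 in at least 1 heart. Over all tested genes, 51.6% were below 0 and 14.5% had an unadjusted p under 0.05 in edgeR. Mouse 369 was also the highest in the endothelial sum, at 941 CPM. Other hearts were highest in the cardiomyocyte, fibroblast, smooth muscle and pericyte, skeletal muscle, adipocyte and erythroid sums. The part of these cell types in the Fxyd5, Fxyd6 and Atp1b2 values was not tested.

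**Figure D3:**
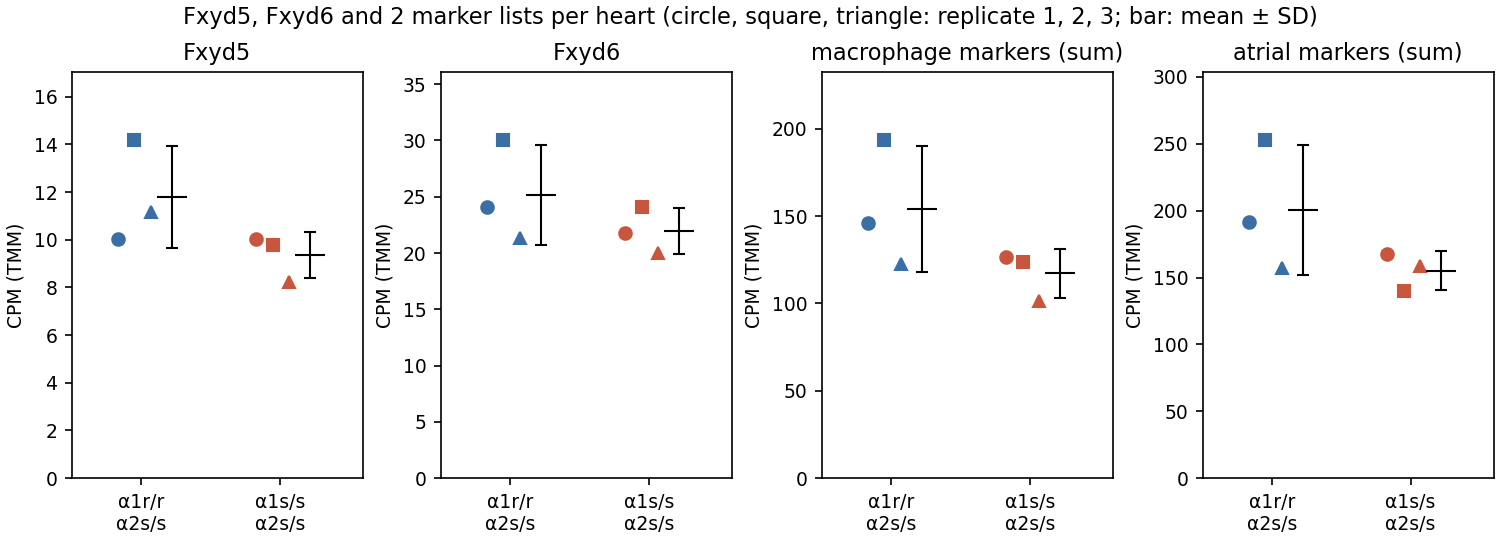
CPM of Fxyd5 and Fxyd6 and the summed CPM of the macrophage and atrial marker lists in each heart, with the mean and SD of 3 hearts. The square of the α1r/rα2s/s group, mouse 369, is the highest point in each panel, at 14.2, 30.0, 194 and 253 CPM.

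Of the other marker lists, the sums overlapped between the genotypes for endothelium (802 to 941 against 674 to 847 CPM), fibroblasts (697 to 771 against 727 to 793 CPM), smooth muscle and pericytes (938 to 1024 against 858 to 987 CPM), skeletal muscle (1089 to 1289 against 1272 to 1323 CPM) and erythroid cells (536 to 1272 against 401 to 3187 CPM). Point estimates were below 0 for 3 of 5 endothelial, 3 of 5 fibroblast and 5 of 5 smooth muscle and pericyte markers. They were above 0 for 6 of 7 cardiomyocyte, 3 of 4 tested skeletal muscle, 3 of 3 tested adipocyte and 5 of 5 erythroid markers, and no gene of any marker list passed an adjusted p under 0.05 in edgeR. The adipocyte sums did not overlap, at 0.854 to 1.72 CPM in α1r/rα2s/s hearts and 1.84 to 3.77 CPM in α1s/sα2s/s hearts. They rest on few reads, at 1 to 25 counts per heart for Adipoq, 4 to 23 for Plin1 and 10 to 28 for Cidec. Lep had at most 2 counts in any heart. Of single tested genes, 20% did not overlap.

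Among the 3 FXYD members, Fxyd1 was 88.6%, 84.7% and 89.2% of the counts per kilobase in α1r/rα2s/s hearts and 90.2%, 88.4% and 91.1% in α1s/sα2s/s hearts. The share of Fxyd6 was 8.11%, 10.5% and 7.17% against 6.76%, 8.28% and 6.35%, and both shares overlapped between the genotypes (exact permutation tests, two-sided p = 0.3). The Fxyd5 share was 3.30%, 4.84% and 3.67% in α1r/rα2s/s hearts and 3.05%, 3.29% and 2.56% in α1s/sα2s/s hearts. Every α1s/sα2s/s heart was below every α1r/rα2s/s heart in this share, though mice 368 and 380 were nearly equal. The ratio of Fxyd5 to a tested gene did not overlap for 29.3% of the genes. The mean Fxyd5 share was 3.94% ± 0.802 and 2.97% ± 0.371 (SD, n = 3; exact permutation test, two-sided p = 0.1, adjusted over the 3 shares 0.3). Without mouse 369 its difference was -0.516 in place of -0.967 percentage points, and those of Fxyd1 and Fxyd6 were 1.02 in place of 2.41 and -0.505 in place of -1.45.

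The other genes of the family were near or at 0. Fxyd2, which encodes the γ subunit of the kidney pump, was the only one of 8 such genes to pass the filter, with 35, 35 and 22 counts in α1r/rα2s/s hearts and 76, 24 and 47 in α1s/sα2s/s hearts. Its log2 fold change was 0.75 (95% interval -0.08 to 1.58, adjusted p = 0.396 in edgeR), and without mouse 379, which had the highest count, it was 0.32. Fxyd7, a FXYD gene of the brain, had 3 to 18 counts per heart. Fxyd3, Fxyd4 and Atp1b4 had at most 3, 5 and 4 counts in any heart. Of the H/K-ATPase genes, Atp4a had at most 2 counts, and Atp4b and Atp12a had 0 counts in all hearts.

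The 6 members fell into a more and a less abundant set, and hearts of one genotype matched less closely in the latter. The less abundant set was not scarce among all tested genes. By mean log2 CPM, Fxyd6, Atp1b2 and Fxyd5 were at percentiles 62.8, 56.1 and 43.8 of them. Atp1b1, Fxyd1 and Atp1b3 were at percentiles 96.3, 94.1 and 83.1. On the scale of CPM per kilobase of gene length, Atp1b1 had 59.6 to 73.7, Fxyd1 59.3 to 70.8 and Atp1b3 21.1 to 25.2 over all hearts. Fxyd6 had 4.87 to 7.32, Atp1b2 3.31 to 5.13 and Fxyd5 1.97 to 3.38. Neighbours in this order overlapped for Atp1b1 and Fxyd1, for Fxyd6 and Atp1b2, and for Atp1b2 and Fxyd5. The gene length in the count table joins the exons of all transcripts, which for Fxyd1 is 2186 bases from 17 transcripts, while its longest coding transcript has 620. Per kilobase of the longest coding transcript, Fxyd1 had 209 to 250 CPM and Atp1b1 71.2 to 88.0 CPM. The order of these members thus depends on the length used. For Fxyd5 the gene length is 4192 bases and the median length of its coding transcripts is 817. On the median length, the mean share among the FXYD members was 5.12% for Fxyd5 and 4.99% for Fxyd6 in α1r/rα2s/s hearts. In α1s/sα2s/s hearts it was 3.84% and 4.13%, so the order of Fxyd5 and Fxyd6 also depends on the length. The SD within a genotype, pooled over both genotypes, was taken as a percentage of the mean of all hearts. It was 4.71%, 5.37% and 5.83% for Atp1b1, Atp1b3 and Fxyd1, and 15.4%, 14.7% and 15.8% for Atp1b2, Fxyd6 and Fxyd5. The median over all tested genes was 11.2%. The genotypes differed in spread, with SDs in α1r/rα2s/s and α1s/sα2s/s hearts of 4.44 and 2.04 CPM for Fxyd6 and 1.93 and 3.44 CPM for Atp1b2.

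The ratio of 2 members in the same heart does not depend on library size. Of the 15 ratios among the members, 4 did not overlap between the genotypes. Atp1b1 over Atp1b3 was 4.10, 3.92 and 4.04 in counts in α1r/rα2s/s hearts and 3.27, 3.05 and 3.47 in α1s/sα2s/s hearts. Atp1b1 over Fxyd1 was 1.48, 1.75 and 1.61 in α1r/rα2s/s hearts and 1.27, 1.34 and 1.29 in α1s/sα2s/s hearts, so there were fewer β1 counts for each phospholemman count in all 3 α1s/sα2s/s hearts. The ratio of means between the genotypes was 0.811 for the former and 0.808 for the latter. These 2 ratios are 2 of the 5 that hold Atp1b1, and the ratio of Atp1b1 to any tested gene did not overlap for 34.3% of the genes. The others without overlap were Atp1b3 over Fxyd5, with means of 4.71 and 6.35, and Fxyd1 over Fxyd5, with means of 11.9 and 16.0. The same share of ratios to any tested gene was 29.3% for Fxyd5, 20.4% for Atp1b3, 19.1% for Fxyd1, 12.2% for Fxyd6 and 8.64% for Atp1b2. The ratio of Atp1b3 to Fxyd1 was 0.401 ± 0.043 and 0.400 ± 0.035 (SD, n = 3). These ratios were looked at with the values of the members known, and no test was made on them.

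**Figure D4:**
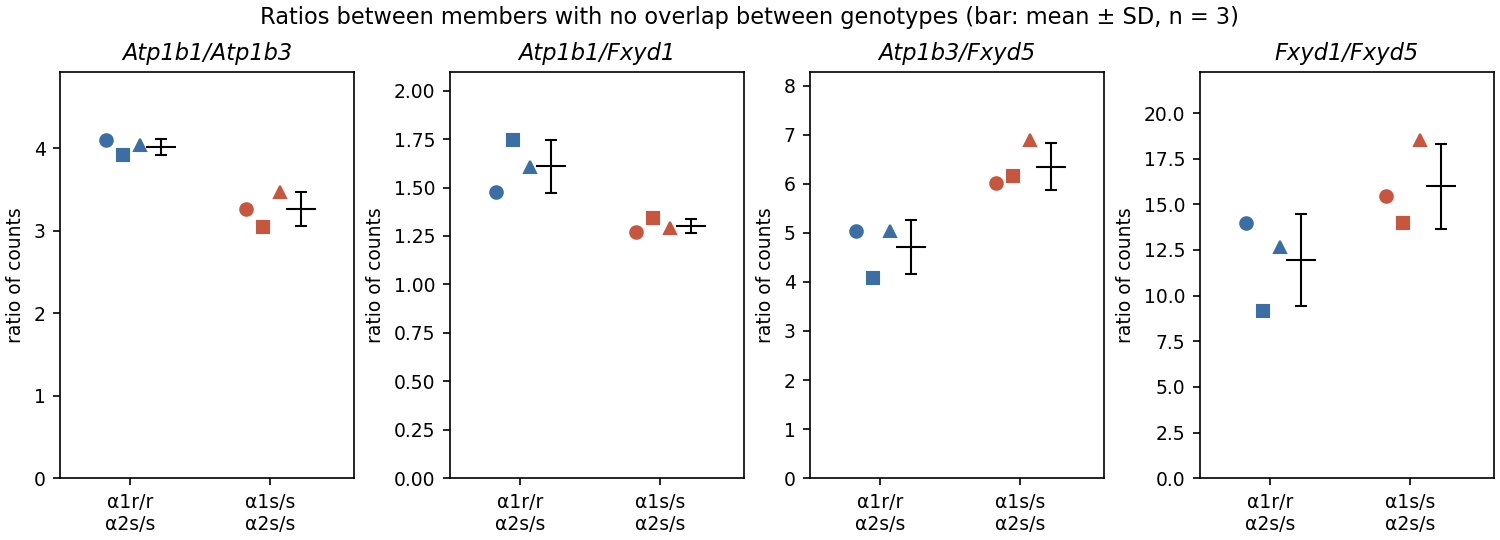
Ratio of the counts of 2 members in each heart, for the 4 ratios of 15 whose hearts did not overlap between the genotypes, with the mean and SD of 3 hearts. Atp1b1 over Atp1b3 lies at 3.92 to 4.10 in α1r/rα2s/s hearts and at 3.05 to 3.47 in α1s/sα2s/s hearts.

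The pump depends on enzymes that phosphorylate phospholemman, on proteins that fold, anchor or remove it, and on the transporters that set the sodium it clears. In the list of phospholemman kinases and phosphatases, 14 of 14 genes were tested and 0 were called by edgeR in either direction (5 at an unadjusted p under 0.05, and 0 called by DESeq2). The median log2 fold change was 0.08, with 9 of 14 above 0, where the median over all tested genes was -0.01. Without overlap between the genotypes, 7 of the 14 were higher and 2 were lower in α1s/sα2s/s hearts. Of all tested genes, 20% did not overlap, and 9.98% were lower without overlap. The list was not tested as a set. Over all tested genes, 14.5% had an unadjusted p under 0.05 in edgeR and 51.6% were below 0. Prkca, the gene of protein kinase Cα, had 39.9 ± 4.05 CPM in α1r/rα2s/s hearts and 33.6 ± 0.891 CPM in α1s/sα2s/s hearts (SD, n = 3), and its log2 fold change was -0.25 (adjusted p = 0.210 in edgeR). Ppp1ca, a catalytic subunit of protein phosphatase 1, had 157 ± 6.46 and 181 ± 13.98 CPM (SD, n = 3), and its log2 fold change was 0.20 (adjusted p = 0.216 in edgeR).

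In the list of genes for anchoring, assembly and turnover, 13 of 16 genes were tested and 0 passed in edgeR (3 at an unadjusted p under 0.05), with a median log2 fold change of -0.02. Hspa5 encodes BiP, the chaperone of the endoplasmic reticulum, and its log2 fold change was -0.33 (95% interval -0.54 to -0.13, adjusted p = 0.111 in edgeR). In DESeq2 its adjusted p was 0.0131, which is past the threshold. Ank3, which encodes an ankyrin of the membrane skeleton, was at -0.19 on the log2 scale (adjusted p = 0.245 in edgeR). Among 6 sodium and calcium transport genes, 0 passed in edgeR (1 at an unadjusted p under 0.05), and the median was -0.12. The share of all tested genes at an unadjusted p under 0.05 in edgeR was 14.5%. Slc8a1, the gene of the sodium-calcium exchanger, which phospholemman also binds, was at -0.20 on the log2 scale (adjusted p = 0.349 in edgeR).

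**Figure D5:**
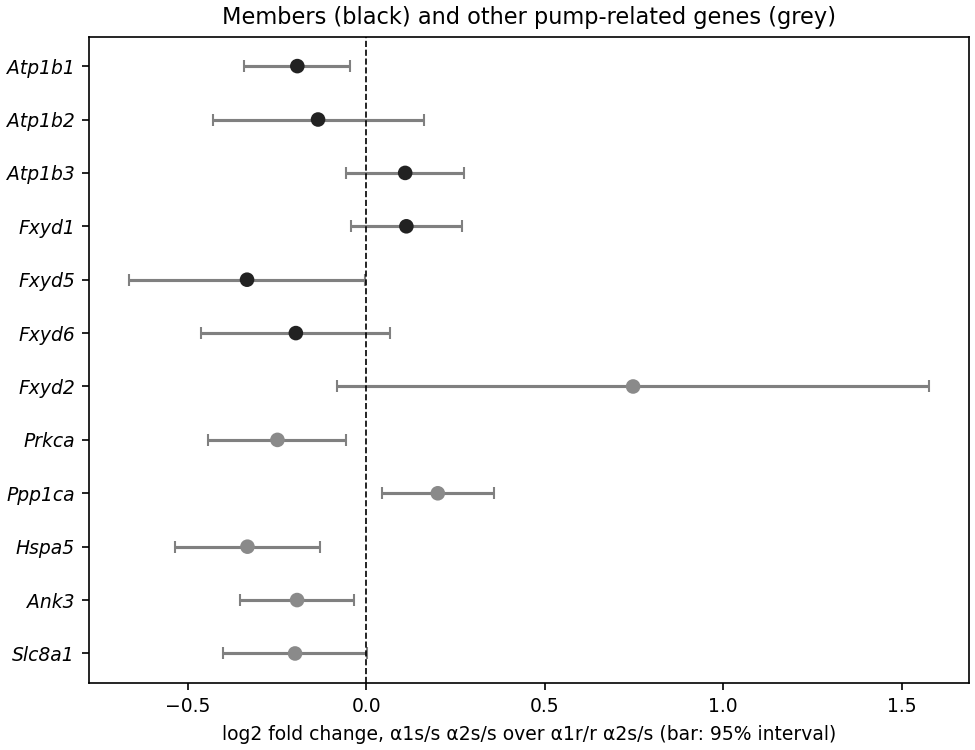
Log2 fold change of α1s/sα2s/s over α1r/rα2s/s hearts from edgeR, with its 95% interval, for the 6 members (black) and other pump-related genes (grey). The members lie between -0.33 and 0.11, and the widest interval is that of Fxyd2, from -0.08 to 1.58.

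Fxyd5, Fxyd7 and Fxyd1 lie next to each other on the minus strand of chromosome 7, with 31 bases between Fxyd5 and Fxyd7 and 210 bases between Fxyd7 and Fxyd1. The outer genes of this row had point estimates of opposite sign, -0.33 for Fxyd5 and 0.11 for Fxyd1. On the other side of Fxyd1 is Lgi4, with a log2 fold change of -1.08 (adjusted p = 0.174 in edgeR) from 15 to 73 counts. On the lower side of Fxyd5 the nearest gene is Fam187b, with at most 2 counts in any heart. On chromosome 9, Fxyd2 starts 3509 bases after Fxyd6. Within 100 kb of a member, 2 genes passed the threshold in edgeR, Tmprss13 beside Fxyd6 (log2 fold change -1.27, adjusted p = 0.0473) and Fxr2 beside Atp1b2 (0.32, adjusted p = 0.0316). The genes tested there were 2 for Atp1b1, 13 for Atp1b2, 2 for Atp1b3, 8 for Fxyd1, 9 for Fxyd5 and 2 for Fxyd6. Some of them were shared by Fxyd1 and Fxyd5. Over all tested genes, 1.44% passed. Tfdp2 and BC043934, the nearest genes on either side of Atp1b3, differed by 0.28 and 0.02 on the log2 scale, neither past the threshold in edgeR (adjusted p = 0.124 and 0.990). Next to Atp1b1 is Gm32391, a noncoding RNA gene with 11 to 35 counts per heart. On its other side, Nme7 runs on the opposite strand and shares 617 bases with Atp1b1. It had 48 to 80 counts per heart, against 3492 to 4734 for Atp1b1. Whether the counting used strand is not given in the sources used here, so the reads of these overlapping genes cannot be told apart.

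Genes whose pattern over the 6 hearts was most like that of a member were found by the root mean square difference of log2 CPM, each gene centred on its mean, among the 12107 genes whose mean log2 CPM reached 1. For Atp1b1 these were Nfkb2 and Pdxk, with differences of 0.018 and 0.021 on the log2 scale. For Fxyd1 they were Cltb and Myl12a, at 0.011 and 0.017, and for Atp1b3 they were Baz2a and Mcmbp, at 0.013 and 0.023. The less abundant members had more distant neighbours. Nid2 was at 0.035 for Fxyd6, Ppp1r16b and Pros1 at 0.042 and 0.043 for Atp1b2, and Tmem35a and Kdelr3 at 0.049 and 0.050 for Fxyd5. None of these genes had an adjusted p under 0.05 in edgeR. The likeness is a description over 6 hearts and was not tested.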

How the data were processed

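RNA-seq of 6 whole hearts, 3 of each genotype, was analysed. The authors deposited raw counts per gene, not normalized, from reads that a sequencing service had checked, mapped and counted. The submitters' processing notes name fastp, STAR, featureCounts and the mm10 genome, and no versions or strand setting are given in the sources used here. A second deposited table holds the authors' own DESeq2 comparison and was not used. Gene positions and lengths are those of the count table, and those of the 6 members equal GENCODE M21 on GRCm38.

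Counts were tested in R 4.3.3 with edgeR 4.0.16 (TMM, filterByExpr with minimum count 10 and minimum total 15, quasi-likelihood test) over all genes, with Benjamini-Hochberg adjustment and a threshold of 0.05. The standard error is the size of the log2 fold change over the square root of F, and 95% intervals use the t distribution. Log2 CPM used a prior count of 2. Shares used scipy 1.17.1 (exact permutation tests). DESeq2 1.42.0, other scalings, filters and lengths, and leaving out each heart were the alternatives. The edgeR test was also run on simulated counts with known changes, while the permutation tests and DESeq2 were not. Counting error falls with depth, which was 19309312 to 20470065 counts per heart. The edgeR p-values set the difference between the genotypes against the spread between hearts of a genotype. The exact permutation tests set a difference of means against those from all regroupings of the hearts.

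The members and lists were chosen with earlier results of these data known. Named genes were the members, their family, per list those past the threshold or else the 2 with the smallest p, those past the threshold or else the nearest within 100 kb, and the 2 most alike in pattern. The α subunit genes and some single genes and lists are not reported here.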

Additional observations from a re-analysis of the deposited data

How the results depend on the processing

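No paired analysis was possible because the labels give the genotypes no shared replicate numbers. Across the 13 alternatives, no member passed an adjusted p under 0.05, and the signs of Atp1b1, Atp1b3, Fxyd1, Fxyd5 and Fxyd6 did not change. Atp1b2 had a log2 fold change of -0.267 to 0.0137 when each heart was left out, above 0 only without mouse 381, and its share differed by -0.41 to 0.41 percentage points in those fits (0.049 without mouse 368, 0.075 without mouse 369 and 0.41 without mouse 381). The cause was not tested. Without each heart in turn, the difference was -4.79 to -3.09 percentage points for Atp1b1, 3.32 to 4.38 for Atp1b3 and -1.28 to -0.52 for Fxyd5. Lengths of the longest coding transcript, or none, kept those signs, as did the median length of coding transcripts, an alternative chosen after seeing the data. The longest coding length moved the Fxyd5 share difference to -0.42 percentage points, and raw counts gave -1.56. Over all genes, 400 passed in DESeq2, 618 without a filter, and 80 to 158 with 1 heart left out (80, 91, 135, 123 and 102 without mice 368, 369, 379, 380 and 381). In the other pump lists, 2 genes, Hspa5 among them, passed in DESeq2 and 2 without a filter. For Atp1b2 and Fxyd5, counting error was 4.77% to 7.93% of a value, and the SD within a genotype, pooled over both genotypes, was 15.4% and 15.8% of the mean.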
